A study of Mus musculus with 36 samples.

Results

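The libraries described here were made from HPC-1, the multipotent progenitors of the bone marrow that the deposited labels call ST-HSC, of *Apoe*-/- mice with an intact *Il27ra* gene. All libraries whose labels give these cells and this genotype were taken, 3 from mice infused with Ang II and 2 from mice infused with PBS, which are 5 of the 36 samples of the series. The study started WD at 8 weeks of age, and its text on the sequenced mice gives 12 weeks of WD, Ang II at 800 ng per kg per min or PBS for 2 weeks, and 5000 sorted cells for a sample. Every mouse of the series is *Apoe*-/-, so the PBS mice are hypercholesterolemic controls and not healthy ones. For comparison, the same cells of *Apoe*-/-*Il27ra*+/- mice (4 Ang II and 3 PBS libraries) and of *Apoe*-/-*Il27ra*-/- mice (4 Ang II and 3 PBS libraries) were used under the same diet and infusion. The labels state no sex, no age and no batch. The legend of the study's figure on these cells gives 2 *Apoe*-/-, 4 *Apoe*-/-*Il27ra*+/- and 3 *Apoe*-/-*Il27ra*-/- mice, and does not say if these are per infusion. Either way this is fewer than the 3 *Apoe*-/- and 4 *Apoe*-/-*Il27ra*-/- libraries with Ang II. Nothing states which animals the samples came from, so libraries may share an animal, and the p-values measure the spread between samples, which may be in part technical.

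HPC-1 are cycling progenitors that lie between long-term stem cells and the committed myeloid and lymphoid progenitors. Their entry into the granulocyte-monocyte path is set by the transcription factors C/EBPα and PU.1 and by receptors for GM-CSF, G-CSF and IL-3, and it brings on the genes of primary granule proteins such as myeloperoxidase. Ang II acts on cells through the AT1 and AT2 receptors, and IL-27 through IL-27R paired with gp130, which signals through JAK kinases to STAT3.

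Ang II replicate 3 stood apart from the other libraries, so results are given with and without it. Its log2 CPM correlated with those of the other *Apoe*-/- HPC-1 libraries at 0.847 to 0.858, while pairs without it reached 0.931 to 0.968 (13199 genes). On the first principal component of all 19 HPC-1 libraries, which held 20.6% of the variance, it lay at 148 and all others between −19.5 and 5.18. On the second, with 11.6% of the variance, Ang II replicate 3 of *Apoe*-/-*Il27ra*+/- HPC-1 lay at −89.5 and all others between −27.1 and 31.4. Of the 5 *Apoe*-/- HPC-1 libraries, Ang II replicate 3 had the fewest counts, 2319520 against 2908629 to 3517996. In it 1672 of the tested genes had no count, against 276 to 536 in the other 4. The share of counts on *Gm42418*, an abundant ribosomal RNA-like transcript, was 7.75% and 3.18% in the PBS libraries and 5.48%, 6.09% and 3.11% in the Ang II libraries. Transcripts of Y-linked genes were present in all 5 libraries (summed level 205 to 325 CPM), and *Xist*, made from the inactive X chromosome, was at 22.9 and 4.44 CPM in the PBS libraries and at 14.2, 12.6 and 3.44 CPM in the Ang II libraries. In the other genotypes 1 library of each group was high in *Xist* (3560 and 3380 CPM with PBS and Ang II in *Apoe*-/-*Il27ra*+/-, 4150 and 3630 CPM in *Apoe*-/-*Il27ra*-/- HPC-1) with a Y-linked sum of 0, as in female cells. No *Apoe*-/- HPC-1 library was of this kind. The part of depth and detection in the results below was not tested, and the commitment genes below are compared with the other genotypes both with and without the 4 libraries high in *Xist*.

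Of the antigens of the sort gate, *Cd48* and *Slamf1* set HPC-1 apart from LT-HSC, while *Ly6a* was low and some lineage antigens were present. With all 36 libraries scaled together, *Cd48* was at 44.1 and 77.8 CPM in the PBS and 62, 57.1 and 59.4 CPM in the Ang II libraries of HPC-1, and at 0 in all 3 *Apoe*-/- LT-HSC libraries. *Slamf1*, which encodes CD150, was at 0.393 to 8.23 CPM in HPC-1 and at 21.9 to 41.4 CPM in LT-HSC. The 2 cell types thus did not overlap in either gene. *Kit* was at 603 and 628 CPM in the PBS and 851, 691 and 654 CPM in the Ang II libraries of HPC-1. *Cd34* was at 495 to 706 CPM and *Flt3* at 91.1 to 268 CPM. Of the 6 gate antigens, 5 had a log2 difference between Ang II and PBS above 0 (median 0.47, and 0.28 without Ang II replicate 3). In 3 all Ang II libraries lay above the PBS libraries (8.78% of all genes), and 0 had an unadjusted p under 0.05 by edgeR (3.18% of all genes). *Ly6a*, which encodes Sca-1, a positive marker of the gate, was low at 1.18 and 1.75 CPM in the PBS and 4.49, 2.85 and 8.23 CPM in the Ang II libraries. A count of 3 corresponds to 0.872 to 1.29 CPM in these libraries. Of 12 lineage antigens, 11 matched a gene, and 6 were tested, with *Cd3e*, *Cd8a* and *Ly6g* at 0 counts in all 5 libraries. Present were *Ptprc*, which encodes B220 and the other CD45 forms, at 234 to 300 CPM, and *Itgam*, which encodes CD11b, at 44 and 55.7 CPM with PBS and 34.3, 33.7 and 15.5 CPM with Ang II. *Ly6c2* was at 15.8 and 26.3 CPM against 5.23, 12.9 and 5.59 CPM. *Cd4* was highest in Ang II replicate 3, at 11.6 CPM. RNA levels do not give the surface protein by which the cells were sorted.

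No gene differed between the Ang II and PBS libraries by the test used. Of 13199 genes tested, 0 (0%) had an adjusted p under 0.05 (edgeR quasi-likelihood test, adjusted by Benjamini-Hochberg), and the smallest adjusted p was 1. An unadjusted p under 0.05 was reached by 420 genes (3.18%), 271 higher (2.05%) and 149 lower (1.13%) with Ang II. The levels of the 2 groups did not overlap, with all Ang II libraries higher, in 1159 genes (8.78%), and with all of them lower in 1368 genes (10.4%). Over all genes the median log2 difference was −0.00, with 6558 (49.7%) above 0.

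The count of genes at an unadjusted p under 0.05 differed with the libraries used. Ang II replicate 3 was the highest Ang II library in 229 of the 271 higher genes and the lowest Ang II library in 109 of the 149 lower genes. Without it 0 genes were called and 224 of 13055 (1.72%) had an unadjusted p under 0.05 (152 higher, 72 lower), and 115 of these were among the 420. Without Ang II replicate 2 the count was 703 of 13106 (5.36%). Without PBS replicate 2 it was 171 of 14831 (1.15%), where 1 PBS library is left, the other groups supply the spread and the filter passes more genes. limma-voom called 0 genes, with 765 at an unadjusted p under 0.05, and DESeq2 called 1, with 507. The gene DESeq2 called was *Ighg2b*, an immunoglobulin heavy chain constant region, with 0 counts in 4 libraries and 86 in Ang II replicate 3 (DESeq2 adjusted p = 0.00292).

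The size of difference that 3 against 2 libraries could resolve was limited. The median standard error of the log2 difference was 0.40, against 0.34 in *Apoe*-/-*Il27ra*+/- and 0.33 in *Apoe*-/-*Il27ra*-/- HPC-1. The 95% confidence interval lay within a 2-fold difference in either direction for 5629 genes (42.6%), and for 5602 of the 9178 genes (61%) with a mean of at least 10 CPM. For the other genes a change of 2-fold in these cells lay within the interval.

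Some genes had a mean of at least 10 CPM, separate groups and a test without Ang II replicate 3. Among those higher with Ang II, the smallest p was that of *G2e3*, an E3 ubiquitin ligase. Groups separate with all Ang II libraries are also separate without replicate 3, so their separation is no check on that library. *G2e3* (ENSMUSG00000035293, chr12:51348061-51376986, plus strand) had levels of 21.8 and 12.3 CPM with PBS and of 47.9, 38 and 71.3 CPM with Ang II. By the choice of genes, every Ang II library lay above both PBS libraries. The log2 difference was 1.62 (SE 0.37, 95% confidence interval 0.86 to 2.37, unadjusted p = 0.00017 by edgeR) and 1.34 without Ang II replicate 3. In the other genotypes the log2 difference of *G2e3* was −0.11 (SE 0.28) with *Il27ra*+/- and 0.20 (SE 0.28) with *Il27ra*-/-. The test of the difference between genotypes gave adjusted p = 0.981 for the former and 1 for the latter (edgeR).

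**Figure D1:**
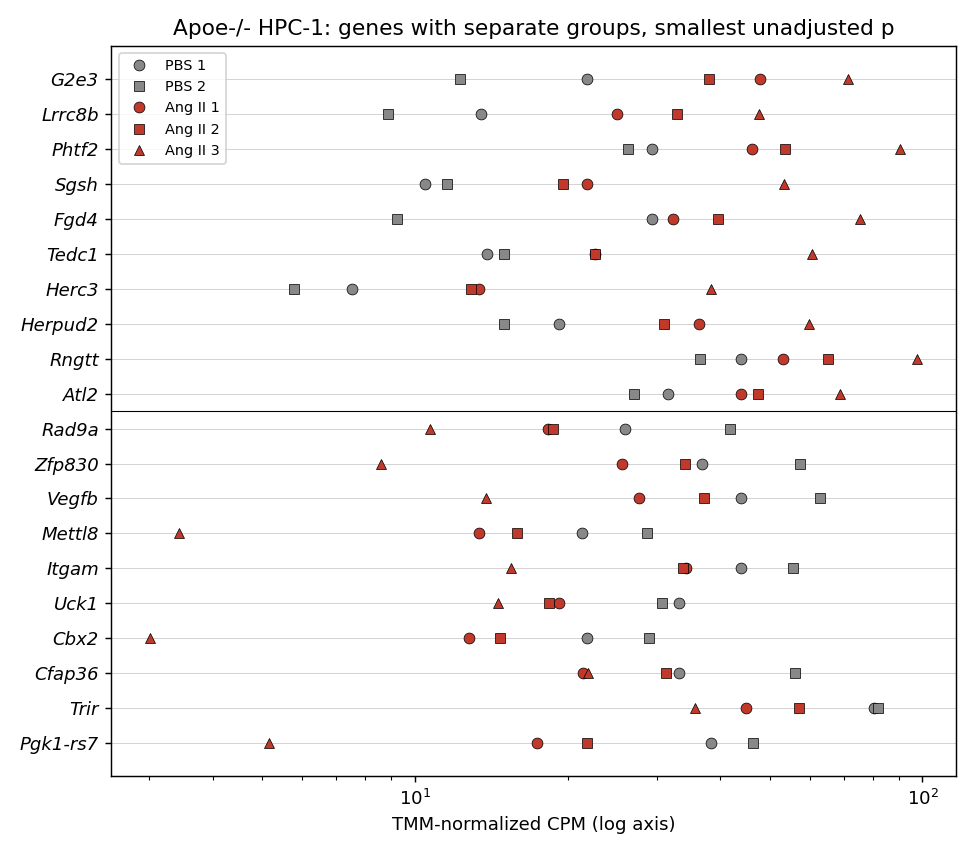
Levels in each *Apoe*-/- HPC-1 library of the 10 higher and 10 lower genes chosen for separate groups, in order of unadjusted p. Red, Ang II; gray, PBS.

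*Lrrc8b* (ENSMUSG00000070639, chr5:105415775-105490074, plus strand), a subunit of the volume-regulated anion channel, was at 13.5 and 8.88 CPM with PBS and 25, 32.8 and 47.7 CPM with Ang II. The log2 difference was 1.64 (SE 0.42), or 1.37 without Ang II replicate 3. *Sgsh*, a lysosomal enzyme of heparan sulfate breakdown, was at 10.5 and 11.6 CPM with PBS and 21.8, 19.6 and 53.3 CPM with Ang II. Here the log2 difference of 1.50 (SE 0.43) became 0.90 without Ang II replicate 3, the highest library. *Phtf2* was at 29.3 and 26.3 CPM with PBS and 46.2, 53.7 and 90.3 CPM with Ang II (log2 difference 1.18, SE 0.32, and 0.84 without Ang II replicate 3). *Fgd4*, an exchange factor for the GTPase Cdc42, came near to overlap, with 29.3 and 9.22 CPM against 32.3, 39.6 and 75.2 CPM. The others were *Tedc1* (log2 difference 1.27), *Herc3*, a HECT-type ubiquitin ligase (1.67), *Herpud2* (1.30), *Rngtt*, the mRNA capping enzyme (0.83), and *Atl2*, a GTPase that fuses endoplasmic reticulum membranes (0.86). Ang II replicate 3 was the highest library in all 10 of these genes. Without it their log2 differences were 0.56 to 1.37, with that of *Rngtt* the smallest and that of *Lrrc8b* the largest.

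In the lower direction, *Itgam*, the myeloid integrin chain, belonged to the lineage antigens. *Itgam* (ENSMUSG00000030786, chr7:128062640-128118491, plus strand) was at 44 and 55.7 CPM with PBS and at 34.3, 33.7 and 15.5 CPM with Ang II. By the choice of genes, all Ang II libraries lay below both PBS libraries, replicate 3 lowest. The log2 difference was −0.83 (SE 0.29, unadjusted p = 0.00833 by edgeR) and −0.55 without that library. *Itgb2*, its partner chain CD18, was at 28.6 and 42 CPM with PBS and 21.2, 26.7 and 6.45 CPM with Ang II (log2 difference −0.94, SE 0.42, and −0.56 without Ang II replicate 3).

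*Rad9a* encodes a subunit of the checkpoint clamp that is loaded at damaged DNA. It had the smallest p of the lower genes with a mean of at least 10 CPM, separate groups and a test without Ang II replicate 3. It was at 25.9 and 41.7 CPM in the PBS and 18.3, 18.7 and 10.7 CPM in the Ang II libraries. The log2 difference was −1.08 (SE 0.36), or −0.87 without Ang II replicate 3. *Vegfb*, a ligand of VEGFR1, was at 44 and 62.8 CPM with PBS and 27.6, 37.1 and 13.8 CPM with Ang II (log2 difference −1.02, SE 0.35). *Cbx2*, a chromobox subunit of Polycomb repressive complex 1, was at 21.8 and 29 CPM with PBS and 12.8, 14.7 and 3.01 CPM with Ang II (−1.29, SE 0.46). *Uck1*, a kinase of uridine and cytidine, differed less between libraries of a group, with 33.1 and 30.7 CPM against 19.2, 18.4 and 14.6 CPM (−0.87, SE 0.31). *Trir*, at 80.1 and 81.9 CPM with PBS and 45, 57 and 35.7 CPM with Ang II, had a log2 difference of −0.81. The remaining genes were *Zfp830* (−1.03), *Mettl8* (−1.17), *Cfap36* (−0.84) and *Pgk1-rs7* (−1.50), a copy related in sequence to *Pgk1*, whose reads may be shared with that gene. Without Ang II replicate 3 the log2 differences of the 10 lower genes were −1.11 to −0.55, with *Pgk1-rs7* the lowest, *Itgam* the highest, *Zfp830* at −0.66 and *Mettl8* at −0.77. That of *Cfap36* ranged from −1.17 to −0.43 with each library left out. Among the 13199 genes, 8708 had a mean of at least 10 CPM and could be tested without Ang II replicate 3. Of these, 819 had separate groups higher and 997 lower with all libraries used.

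Most granulocyte-monocyte commitment genes had log2 differences below 0 in *Apoe*-/- HPC-1 and above 0 in HPC-1 of the other genotypes, and none passed the test in the fit of all HPC-1 libraries. The members of this list, *Emilin2* among them, were chosen with earlier results of these data known. Of 20 genes, 19 were tested, and 18 had a log2 difference below 0 in *Apoe*-/- HPC-1. Their median was −0.36, against −0.00 over all genes, and −0.35 without Ang II replicate 3, where 19 of 19 lay below 0. None had an unadjusted p under 0.05 (0 of 19, against 3.18% of all genes), and in 6 all Ang II libraries lay below the PBS libraries (10.4% of all genes). The count of 0 became 2 with only the groups compared (2.07% of all genes) and 1 by limma-voom (5.8%). It was also 1 with a replicate block (2.36%) and without the filter (3.96%).

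*Mpo* (ENSMUSG00000009350, chr11:87793581-87804413, plus strand), which encodes myeloperoxidase and had the highest level per kb of the list, was at 5260 and 5840 CPM with PBS and 4000, 5190 and 5590 CPM with Ang II. The groups overlapped through Ang II replicate 3. The log2 difference was −0.17 (SE 0.28). *Csf2rb* (ENSMUSG00000071713, chr15:78325752-78353847, plus strand), the shared signaling chain of the GM-CSF, IL-3 and IL-5 receptors, was at 153 and 172 CPM with PBS and 135, 132 and 116 CPM with Ang II. These groups did not overlap (log2 difference −0.35, SE 0.22). *Il3ra*, the IL-3 receptor chain, was at 16.2 and 9.9 CPM with PBS and 6.1, 6.75 and 4.3 CPM with Ang II, also without overlap (−1.17, SE 0.61). *Csf3r*, the G-CSF receptor, was at 175 and 185 CPM with PBS and 136, 141 and 113 CPM with Ang II (−0.47, SE 0.32). *Cebpa*, *Spi1*, which encodes PU.1, and *Emilin2* also stayed apart, at log2 differences of −0.36, −0.25 and −0.50. *Irf8*, a factor of the monocyte and dendritic cell path, was the only gene above 0 (0.07), with 194 and 117 CPM against 103, 147 and 239 CPM. *Klf5* was not tested, with 4 and 5 counts in the PBS and 9, 11 and 0 counts in the Ang II libraries.

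In *Apoe*-/-*Il27ra*+/- HPC-1 the median over the same 19 genes was 0.78 with 18 above 0, and 10 had an unadjusted p under 0.05, against 519 of all genes (3.93%). In *Apoe*-/-*Il27ra*-/- HPC-1 the median was 0.67 with 16 above 0, and 7 had an unadjusted p under 0.05, against 244 of all genes (1.85%). All of these genes were higher with Ang II. The difference between the Ang II effect in *Apoe*-/- and that in *Apoe*-/-*Il27ra*+/- HPC-1 had an unadjusted p under 0.05 in 12 of the 19 genes, all 12 lower in *Apoe*-/-, against 605 of all genes (4.58%). Against *Apoe*-/-*Il27ra*-/- HPC-1 it did so in 7 of the 19, all lower in *Apoe*-/-, against 451 of all genes (3.42%). In the fit of all 19 libraries none passed after adjustment (edgeR quasi-likelihood test, Benjamini-Hochberg, smallest adjusted p 0.981 and 1 over all genes). With each HPC-1 library left out in turn these counts ranged from 7 to 16 and from 3 to 11, and the median in *Apoe*-/- from −0.53 to −0.22. Without Ang II replicate 3 of *Apoe*-/-*Il27ra*+/- HPC-1 they were 10 and 7, and the median with *Il27ra*+/- was 0.76 with 17 above 0. For the Ang II effect in the other genotypes no gene passed in that fit either (edgeR, smallest adjusted p 0.507 with *Il27ra*+/- and 0.874 with *Il27ra*-/-). In a fit of all 36 libraries, 20 genes of the list were tested. There 2 had an unadjusted p under 0.05 for the difference from *Apoe*-/-*Il27ra*+/- and 0 for that from *Apoe*-/-*Il27ra*-/- (5.87% and 5.05% of all genes). For the Ang II effect 2 did so with *Il27ra*+/- and 0 with *Il27ra*-/- (4.17% and 2.96% of all genes), at medians of 0.78 and 0.60. Across all genes the log2 differences of *Apoe*-/- HPC-1 correlated at −0.0182 with those of the *Il27ra*+/- and at −0.0234 with those of the *Il27ra*-/- cells (13199 genes, no library in common). Over genes with a mean of at least 10 CPM the correlations were −0.0867 and −0.0544.

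These calls changed without the libraries high in *Xist*, an alternative chosen after the data were seen. With the other 15 HPC-1 libraries, all of them low in *Xist*, the *Apoe*-/- values stayed at a median of −0.36 with 18 of 19 below 0 and 0 called, while 18 of 19 lay above 0 with *Il27ra*+/- and 15 of 19 with *Il27ra*-/- (median 0.90). Of the 19 genes, 4 were then called for the Ang II effect with *Il27ra*+/- and 5 with *Il27ra*-/-, among 8 and 12 of all genes called. The difference between *Apoe*-/- and *Apoe*-/-*Il27ra*+/- was called for 3 of the 19, among 9 of all genes. These were *Mpo* (difference of log2 differences −1.40, edgeR adjusted p = 0.0138) and the granule protease genes *Elane* (−3.02, edgeR adjusted p = 0.00367) and *Prtn3* (−1.80, edgeR adjusted p = 0.0354). Against *Apoe*-/-*Il27ra*-/- 2 of the 19 were called, *Mpo* (−1.33, edgeR adjusted p = 0.0416) and *Elane* (−3.12, edgeR adjusted p = 0.00505), among 4 of all genes. Calls outside the list, chosen after their values were seen, included *C3*, which encodes a complement protein (−3.46 and −3.36, edgeR adjusted p = 0.00362 and 0.00505), and the lineage antigen *Ly6c2* (−3.70 and −3.88, edgeR adjusted p = 0.0373 and 0.0443) for both differences. *Ccr2* of the mature list was called for the difference from *Apoe*-/-*Il27ra*+/- (−3.38, edgeR adjusted p = 0.00362). This fit leaves 2 PBS and 3 Ang II libraries in each genotype, and it was not repeated with single libraries left out. The 4 libraries it drops had 4922800, 6318379, 4475778 and 5212330 counts, the most of any HPC-1 libraries, so it drops depth together with *Xist*. With all 19 libraries and the Y-linked level as a covariate instead, 0 genes were called in each of these comparisons.

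The fit of all 19 libraries also gave calls under other settings, while the fit of all 36 libraries called no gene of the list. Without the filter on low counts, *Ctsg*, which encodes cathepsin G, was called for the difference from *Apoe*-/-*Il27ra*+/- (edgeR adjusted p = 0.045). In that setting 2 genes of the list were called for the Ang II effect with *Il27ra*+/- (*Ctsg* and *Fcgr3*) and 2 with *Il27ra*-/- (*Ctsg* and *Ms4a3*). Of all 27858 genes, 11 and 10 were called there, and 8 for the difference from *Apoe*-/-*Il27ra*+/-. With a replicate block *Mpo* was called with *Il27ra*+/- (edgeR adjusted p = 0.0407), among 7 of all genes. No gene of the list was called for the Ang II effect in *Apoe*-/- HPC-1 under any setting with all of its libraries.

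The summed level of the list was 7020 and 7800 CPM in the PBS libraries of *Apoe*-/- HPC-1 and 5270, 6820 and 7340 CPM in its Ang II libraries. In *Apoe*-/-*Il27ra*+/- HPC-1 it was 3350, 3380 and 5980 CPM with PBS and 8040, 7350, 7560 and 6440 CPM with Ang II. In *Apoe*-/-*Il27ra*-/- HPC-1 it was 3100, 3240 and 5560 CPM with PBS and 6660, 5990, 7570 and 4660 CPM with Ang II. Both *Apoe*-/- PBS libraries thus lay above all 6 PBS libraries of the other genotypes, while the Ang II libraries of the 3 genotypes overlapped. The highest of these PBS libraries (5980 and 5560 CPM) and the lowest Ang II libraries (6440 and 4660 CPM) of the other genotypes were those high in *Xist*. Of the 19 genes, 9 lay above all 6 other PBS libraries in both *Apoe*-/- PBS libraries (7.59% of all genes) and 10 did not. *Csf2rb* was among the 9, at 62.6, 68.1 and 94.6 CPM in the PBS libraries with *Il27ra*+/- and 73.7, 63.5 and 88.4 CPM in those with *Il27ra*-/-. *Emilin2* was at 140 CPM in both PBS libraries of *Apoe*-/- HPC-1. It was at 73.1, 52.7 and 54 CPM in those with *Il27ra*+/- and at 47.7, 51.3 and 41.4 CPM in those with *Il27ra*-/-. The choice of *Emilin2*, as of the other members, was made with earlier results of these data known. *Mpo*, which holds most of the sum, was at 2400, 2390 and 4540 CPM in the PBS libraries with *Il27ra*+/- and 2140, 2350 and 4130 CPM in those with *Il27ra*-/-. In bulk RNA of sorted cells, a smaller share of myeloid-primed cells and less of this RNA in each cell cannot be told apart. *Csf3r* was among the 10, at 179, 221 and 144 CPM in the PBS libraries with *Il27ra*+/- and 183, 206 and 184 CPM in those with *Il27ra*-/-, as was *Irf8*, at 85.8, 91.6 and 205 CPM and 114, 58.2 and 206 CPM. The PBS levels of the genotypes were not tested against each other.

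**Figure D2:**
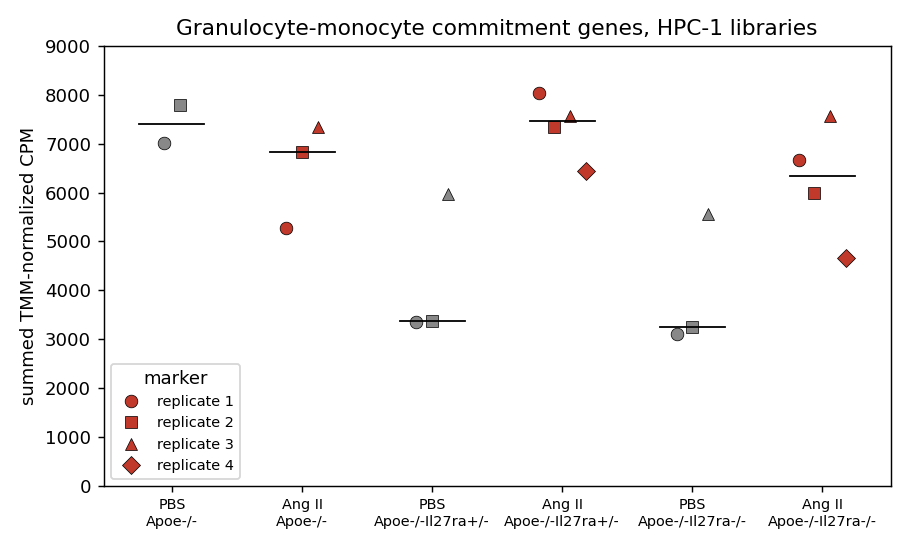
Summed level of the 20 granulocyte-monocyte commitment genes in each HPC-1 library, by genotype and infusion. In the other 2 genotypes, PBS replicate 3 and Ang II replicate 4 are the libraries high in *Xist*.

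Genes of mature neutrophils and monocytes went in both directions. Of 17 genes 14 were tested, and their summed level was 273 and 388 CPM with PBS and 196, 261 and 272 CPM with Ang II. The groups all but met at PBS replicate 1 and Ang II replicate 3. *Ly6g* and *Retnlg* had 0 counts in all 5 libraries, and *Lyz2* had the highest level per kb, at 106 and 99.7 CPM with PBS and 88.3, 96 and 54.6 CPM with Ang II. The median log2 difference was −0.55 with 9 of 14 below 0, −1.14 with 13 of 14 below 0 without Ang II replicate 3, and 1.38 without PBS replicate 2. *Ngp*, a neutrophil granule protein, was at 2.26 and 27.7 CPM with PBS and 2.03, 8.59 and 7.31 CPM with Ang II, and *Lcn2* at 2.26 and 19.1 CPM against 2.03, 5.83 and 2.58 CPM. PBS replicate 2 was the highest library for both. *S100a9*, at 3.01 and 18.8 CPM with PBS and 0.581, 5.52 and 34 CPM with Ang II, and *Ltf*, at 2.26 and 15 CPM against 1.16, 8.59 and 37.4 CPM, were highest in Ang II replicate 3. In 4 of the 14 genes all Ang II libraries lay below the PBS libraries (10.4% of all genes), and in 1 above (8.78%). The 4 were *Itgam*, the only gene of the list at an unadjusted p under 0.05 (1 of 14, against 3.18% of all genes), *Lyz2*, *Ccr2* and *Cxcr2*. *Ccr2*, a chemokine receptor of monocytes, was at 86.8 and 92.5 CPM with PBS and 52, 78.8 and 80.8 CPM with Ang II, and *Cxcr2*, one of neutrophils, at 20.7 and 27.3 CPM against 13.4, 13.5 and 3.87 CPM (log2 difference −1.21, SE 0.71).

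In the other genotypes the mature neutrophil and monocyte list lay above 0 together with the commitment genes. Among them *Ccr2* was called with *Il27ra*+/- and with *Il27ra*-/- in the fit of the 15 libraries low in *Xist* (edgeR adjusted p = 0.000667 and 0.0107). With *Il27ra*+/- 12 of 14 were above 0 and 3 had an unadjusted p under 0.05 (3.93% of all genes), at summed levels of 155, 143 and 188 CPM with PBS and 329, 222, 328 and 244 CPM with Ang II. With *Il27ra*-/- 14 of 14 were above 0 and 8 had an unadjusted p under 0.05 (1.85% of all genes), at 157, 154 and 195 CPM with PBS and 270, 307, 534 and 163 CPM with Ang II. By limma-voom these counts of 3 and 8 were 2 and 3 (5.21% and 4.34% of all genes). With all 36 libraries they were 0 and 0 of 17 (4.17% and 2.96% of all genes). With the replicate block they were 6 and 10 (6.08% and 3.02% of all genes). Of 18 erythroid genes, 5 had an unadjusted p under 0.05 with *Il27ra*+/- (3.93% of all genes), 4 of them higher, at a median of −0.09 with 9 above and 9 below 0. With *Il27ra*-/- 7 did so (1.85% of all genes), all higher, at a median of 0.96 with 13 above 0. The erythroid counts were 0 and 1 by limma-voom, 0 and 3 with all 36 libraries and 10 and 9 with the replicate block, against the same shares. Their medians ranged from −0.27 to 1.45 and from 0.64 to 1.24 with each library left out. They were 0.32 and 0.25 by limma-voom, and 1.18 and 0.62 in the 15 libraries low in *Xist*. The study's lineage stain, with antibodies to antigens such as Gr1 and CD11b, is meant to remove mature cells. Whether such cells in the sort had a part in the commitment genes was not tested.

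Early lymphoid genes leaned on PBS replicate 2. Of 22 genes 15 were tested, 11 had a log2 difference above 0, 0 had an unadjusted p under 0.05 (3.18% of all genes) and 0 had separate groups (8.78% of all genes higher, 10.4% lower). The median was 0.29, and 0.30 with 13 of 15 above 0 without Ang II replicate 3, but 0.03 with 9 of 15 above 0 without PBS replicate 2. *Flt3*, the receptor for FLT3 ligand, was at 210 and 88.8 CPM with PBS and 260, 198 and 254 CPM with Ang II. PBS replicate 2 was low and PBS replicate 1 lay within the Ang II range. *Satb1*, a chromatin organizer of lymphoid priming, was at 206 and 143 CPM with PBS and 201, 220 and 219 CPM with Ang II, and *Notch1* at 124 and 85 CPM against 123, 133 and 125 CPM. In each of these 3 genes the difference rested on PBS replicate 2. *Cd79a*, *Igll1*, *Ly6d* and *Ccr7* had 0 counts in all 5 libraries. With *Il27ra*+/- 14 of the 15 genes and with *Il27ra*-/- 12 of the 15 lay below 0, at medians of −0.23 and −0.09.

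Stem cell genes gave a median of 0.19 with 9 of 16 tested genes above 0, and 0.19 without Ang II replicate 3, but −0.06 with 10 of 16 below 0 without PBS replicate 2. *Hlf*, a transcription factor of stem cells, was at 67.7 and 71 CPM with PBS and 95, 71.1 and 82.9 CPM with Ang II, and *Meis1* at 245 and 167 CPM against 242, 240 and 226 CPM. Ang II replicate 2 all but touched the PBS range for *Hlf*, and the groups overlapped for *Meis1*. *Vldlr*, the very low density lipoprotein receptor, was the only member at an unadjusted p under 0.05 (1 of 16, against 3.18% of all genes), with 77.1 and 80.2 CPM against 64.5, 42.3 and 7.74 CPM. Its log2 difference was −1.02, and −0.56 without Ang II replicate 3.

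Cell cycle genes went in both directions. The median log2 difference was 0.03 for 26 DNA replication genes and 0.07 for 25 mitosis genes, and −0.06 and −0.03 without Ang II replicate 3. With each library left out they ranged from −0.06 to 0.04 and from −0.06 to 0.22. The groups were apart, higher with Ang II, in 2 genes of each list (8.78% of all genes). Among 16 tested cyclins, kinases and inhibitors of the G1 phase the median was 0.18, with 12 above 0, and ranged from 0.05 to 0.23 with each library left out. In 3 of them the groups were apart higher (8.78% of all genes) and in 2 lower (10.4%). *Ccnd1* (ENSMUSG00000070348, chr7:144929931-144939925, minus strand), which encodes cyclin D1, was at 21.1 and 8.88 CPM with PBS and 27.3, 27.3 and 43 CPM with Ang II. The groups did not overlap. The log2 difference was 1.12 (SE 0.44, unadjusted p = 0.0171 by edgeR) and 0.87 (unadjusted p = 0.0647) without Ang II replicate 3. It was 0.59 without PBS replicate 2 and 1.86 without PBS replicate 1. In the other genotypes it was −0.46 with *Il27ra*+/- and 0.36 with *Il27ra*-/-. *Cdk6*, the cyclin D-dependent kinase, was at 548 and 494 CPM with PBS and 633, 573 and 606 CPM with Ang II (log2 difference 0.21, SE 0.17). *Cdkn1a*, which encodes the inhibitor p21, was low, with 12 and 13 counts with PBS and 20, 22 and 26 counts with Ang II (log2 difference 0.81, SE 0.68). *Trp53*, which induces *Cdkn1a*, was at 136 and 184 CPM with PBS and 138, 140 and 147 CPM with Ang II, with overlap. *Myc* overlapped too, at 425 and 515 CPM against 457, 491 and 639 CPM, and 18 of 22 *Myc* and ribosome biogenesis genes lay below 0 at a median of −0.09.

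The receptors of Ang II were not detected. *Agtr1a*, *Agtr1b* and *Agtr2* had 0 counts in all 5 libraries, as did *Agt*, *Ren1* and *Mas1*. Of 18 genes of the renin-angiotensin system 7 were tested, with a median of −0.11 (−0.21 to 0.08 with each library left out) and no gene with separate groups (8.78% of all genes higher, 10.4% lower). *Arrb2*, an arrestin that binds activated receptors of this class, had the highest level per kb of them, with 48.5 and 49.8 CPM against 59.9, 56.4 and 41.7 CPM.

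*Il27ra* (ENSMUSG00000005465, chr8:84030294-84042589, minus strand) was at 7.89 and 11.6 CPM with PBS and 9.88, 8.59 and 6.02 CPM with Ang II. The groups overlapped, with a log2 difference of −0.25 (SE 0.55). Libraries labelled *Apoe*-/-*Il27ra*-/- held 6.5, 10.7 and 7.94 CPM with PBS and 6.35, 5.81, 4.38 and 8.57 CPM with Ang II, so the level of this gene did not set the genotypes apart. Of 19 genes of the IL-27 receptor and JAK-STAT path 17 were tested, and 12 had a log2 difference below 0 at a median of −0.17. In 6 the groups were separate, all lower with Ang II (10.4% of all genes, and 0 against 8.78% higher). An unadjusted p under 0.05 by edgeR was reached by 0 of the 17 (3.18% of all genes). Without Ang II replicate 3 the median was −0.24. *Stat3* was at 200 and 247 CPM with PBS and 189, 180 and 127 CPM with Ang II (log2 difference −0.43, SE 0.23, and −0.28 without Ang II replicate 3), and *Bcl3*, a target of STAT3, at 20.3 and 20.8 CPM against 13.4, 12 and 12.5 CPM. *Il6st*, which encodes gp130, overlapped at 142 and 111 CPM against 110, 104 and 141 CPM. The 30 interferon-stimulated genes had a median of 0.02 with 17 above 0, while 25 of them lay below 0 with *Il27ra*+/- (median −0.28) and 24 with *Il27ra*-/- (median −0.26). With each library left out these medians ranged from −0.16 to 0.08, from −0.45 to −0.16 and from −0.32 to −0.2. The Ang II effect differed from that in *Apoe*-/- at an unadjusted p under 0.05 (edgeR) in 2 of the 30 genes with *Il27ra*+/-. It did so in 0 with *Il27ra*-/- (4.58% and 3.42% of all genes), and none passed after adjustment. The summed level with PBS was 1040 to 1070 CPM in *Apoe*-/-, 1320 to 1380 CPM with *Il27ra*+/- and 1190 to 1270 CPM with *Il27ra*-/-. The sums with Ang II overlapped. *Apoe* itself, deleted in all these mice, had 9 and 24 counts with PBS and 10, 18 and 0 counts with Ang II.

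**Figure D3:**
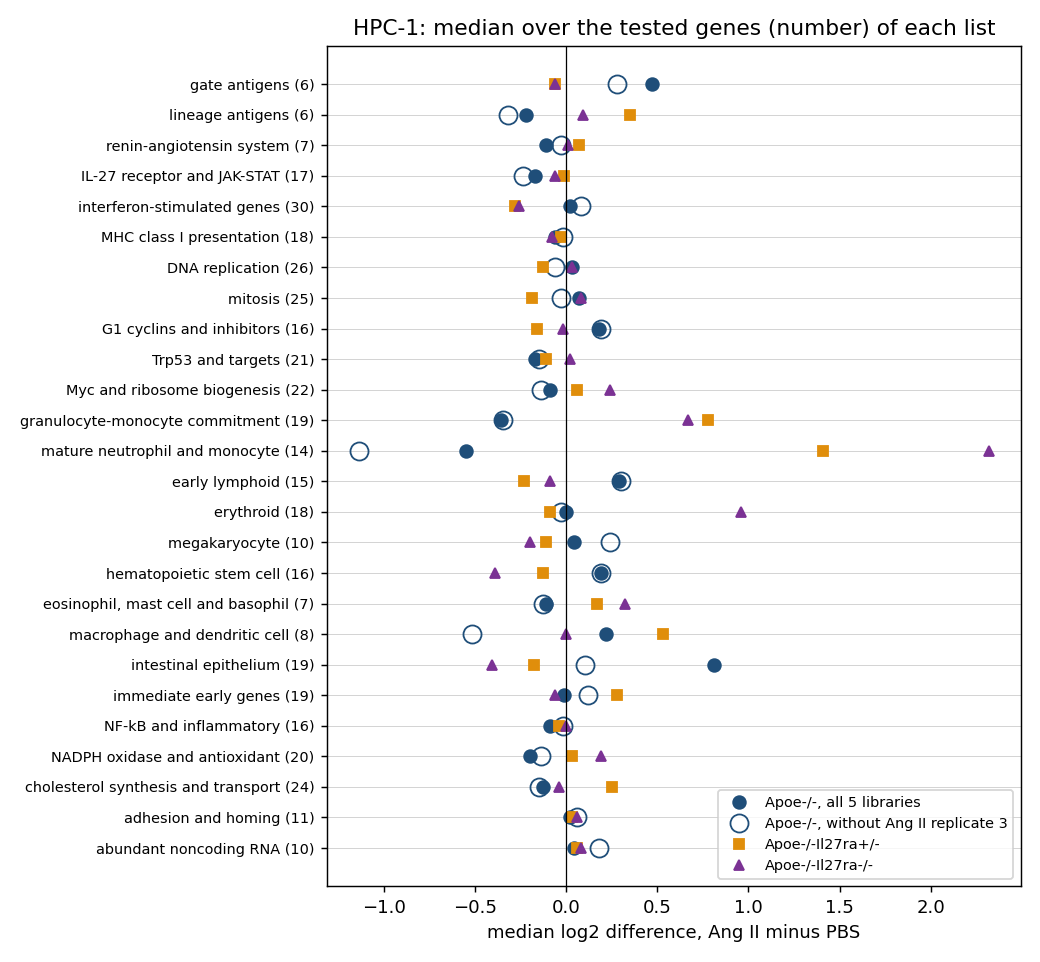
Median log2 difference (Ang II minus PBS) over the tested genes of each list in HPC-1 of the 3 genotypes, and in *Apoe*-/- HPC-1 without Ang II replicate 3. Genes with no count in a whole group enter at their bound against 3 counts.

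The 2 inducible genes of heat shock protein 70 had the largest differences among genes of early and stress response. *Hspa1b* (ENSMUSG00000090877, chr17:34956436-34959238, minus strand) was at 83.4 and 211 CPM with PBS and at 18.3, 5.52 and 49.4 CPM with Ang II. *Hspa1a*, its near-identical neighbour with which it may share reads, was at 78.2 and 100 CPM with PBS and 18, 9.2 and 44.3 CPM with Ang II. The groups did not overlap for either gene. For *Hspa1b* the log2 difference was −2.63 (SE 1.12, unadjusted p = 0.0346 by edgeR), and −3.62 without Ang II replicate 3. It was −2.08 with *Il27ra*+/- and −1.38 with *Il27ra*-/-, where the levels with PBS were 270, 184 and 51.7 CPM and 212, 177 and 42.2 CPM. The Ang II libraries of these genotypes held 44.4, 23.6, 45.2 and 44.6 CPM and 14.9, 132, 68.2 and 8.76 CPM. In the *Il27ra*+/- cells the groups did not overlap either, whereas they did in the *Il27ra*-/- cells. The 19 tested genes of the list as a whole had a median of −0.01, and *Fos*, *Jun* and *Egr1* overlapped between the groups, at log2 differences of 0.24, −0.03 and 1.07.

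Among oxidant and antioxidant genes 15 of 20 had a log2 difference below 0 (median −0.20), and 10 of 20 without PBS replicate 2 (median −0.04). *Hmox1*, heme oxygenase 1, had an unadjusted p under 0.05 (1 of 20, against 3.18% of all genes) but rested on PBS replicate 2, at 0.376 and 5.8 CPM with PBS and 0.291, 0.307 and 0 CPM with Ang II. Of 11 adhesion and homing genes only *Itgb2* had an unadjusted p under 0.05 (3.18% of all genes), and *Cxcr4*, the receptor that keeps progenitors in the marrow, overlapped at 66.2 and 88.4 CPM against 64.2, 90.8 and 76.1 CPM. Cholesterol genes (24 tested) had a median of −0.13. NF-kB and inflammatory genes (16 tested) had one of −0.09, which reached 0.15 with a library left out. MHC class I genes (18 tested) had a median of −0.06 with 3 genes apart higher (8.78% of all genes) and 3 lower (10.4% of all genes).

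Genes of intestinal epithelium were found in HPC-1, and their difference rested on Ang II replicate 3. Of 36 genes 19 were tested, and 16 had a log2 difference above 0 at a median of 0.81. Without Ang II replicate 3 the median was 0.10 with 12 of 19 above 0. The summed level was 621 and 693 CPM with PBS and 668, 599 and 880 CPM with Ang II, most of it from *Muc13*, the gene with the highest level per kb, which blood progenitors also express. *Muc2*, the mucin of goblet cells, was at 9.77 and 6.83 CPM with PBS and 11.3, 7.05 and 57.6 CPM with Ang II. *Agr2*, which helps fold mucins, followed at 6.39 and 4.44 CPM against 3.2, 4.6 and 30.9 CPM, and its log2 difference of 1.24 (SE 1.47) became −0.47 without Ang II replicate 3. With *Il27ra*+/- and *Il27ra*-/- the medians of the list were −0.18 and −0.41, with genes without a count in a whole group at their bound. *Muc2* had no count in the libraries with *Il27ra*-/- but for PBS replicate 2, at 9.79 CPM. Without the filter it was called there (log2 difference −6.50, edgeR adjusted p = 0.00566) and for the difference from *Apoe*-/- (edgeR adjusted p = 0.013). *Cdx1*, *Cdx2* and *Fabp1*, which define intestinal epithelium, had 0 counts in all 5 libraries.

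Genes of other cell types were found at levels that differed by type. Of 13 genes of T and NK cells 2 were tested, *Nkg7*, at 36.1 and 36.9 CPM with PBS and 34.9, 42 and 0.86 CPM with Ang II, and *Cd4*, at 0.376 and 0 CPM against 0.581, 0.92 and 11.6 CPM. Ang II replicate 3 was the library that differed in both. Of 11 genes of B and plasma cells 4 were tested and all lay below 0 (median −1.03), but 3 of 4 did without PBS replicate 2 (median −0.46), and *Cd79a* and *Ms4a1* had 0 counts. *Ighm*, the gene with the highest level per kb, overlapped at 122 and 129 CPM with PBS and 68.9, 81.9 and 161 CPM with Ang II. *Igkc*, the kappa light chain constant region, was at 9.4 and 14 CPM with PBS and 3.49, 7.05 and 1.72 CPM with Ang II, without overlap (log2 difference −1.49, SE 0.84). With *Il27ra*+/- the log2 difference of *Igkc* was 4.34 and with *Il27ra*-/- 2.87, from PBS levels of 1.27, 0.314 and 0.196 CPM and of 3.1, 0.593 and 1.67 CPM. The difference between *Apoe*-/- and *Apoe*-/-*Il27ra*+/- in *Igkc* did not pass in the filtered edgeR fit. It was called by DESeq2 (adjusted p = 0.0313) and by edgeR without the filter (adjusted p = 0.00114). Erythroid genes, at summed levels of 747 and 1100 CPM with PBS and 898, 750 and 955 CPM with Ang II, had a median of 0.00 (18 tested, and 0.49 without PBS replicate 2). Megakaryocyte genes, at 520 and 555 CPM against 587, 488 and 386 CPM, had one of 0.04 (10 tested), and 0.24 without Ang II replicate 3. With each library left out the megakaryocyte median ranged from −0.18 to 0.24. Macrophage and dendritic cell genes, with *C1qa* at 0 counts, had a median of 0.22 (8 tested, *H2-Aa* at its lower bound), and −0.52 without Ang II replicate 3.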

How the data were processed

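The deposited table holds the authors' expected counts in whole numbers (0 values of the table are not whole), estimated with RSEM on mm10. The methods name STAR and the sample notes Bowtie2 as aligner, the RSEM version differs between the 2 (1.2.31 in the notes), and the Ensembl release is not stated. Symbols, positions and exon lengths came from GENCODE vM21, which matched 37570 of 38887 identifiers with 99.63% of the counts.

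All 19 HPC-1 libraries were fitted in 6 groups in R 4.3.3 with edgeR 4.0.16 (filterByExpr, TMM factors, quasi-likelihood test with robust dispersions), which tested 13199 genes. p-values were adjusted by the Benjamini-Hochberg method over all tested genes, at 5%. Levels are CPM after TMM, and log2 differences are those of the fit. Levels over several genes were compared per kb of exon. Counts of 3 or fewer were taken as not detected, a limit that covers counting error only. Genes with no count in a whole group enter list medians at a bound against 3 counts where stated. Alternatives were DESeq2 1.42.0, limma 3.58.1 (voom with sample weights), other scaling factors and filters, other sets of libraries, a replicate block, a Y-linked covariate, each library left out, and, chosen after the data were seen, only the 15 HPC-1 libraries whose *Xist* level was below the sum of their Y-linked genes. The scripts were tested on simulated data.

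Named genes were those the study discusses and 10 in each direction. The 10 had the smallest unadjusted p among genes with a mean of at least 10 CPM, separate groups and a test without Ang II replicate 3. Members and lists were chosen with earlier results of these data known. Lists were the gate and lineage antigens, the renin-angiotensin system, IL-27 receptor and JAK-STAT, interferon-stimulated genes, MHC class I presentation, DNA replication, mitosis, G1 cyclins and inhibitors, Trp53 and targets, Myc and ribosome biogenesis, granulocyte-monocyte commitment, mature neutrophil and monocyte, early lymphoid, erythroid, megakaryocyte, hematopoietic stem cell, eosinophil, mast cell and basophil, T and NK cell, B and plasma cell, macrophage and dendritic cell, stroma and endothelium, intestinal epithelium, immediate early genes, NF-kB and inflammatory, NADPH oxidase and antioxidant, cholesterol synthesis and transport, adhesion and homing, abundant noncoding RNA and sex-linked genes. *Ly76*, *Ighd*, *Kcnq1ot1* and *Snhg1* matched no gene of the table. Genes of the mitochondrial genome matched none either and were not analysed here.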

Additional observations from a re-analysis of the deposited data

Results flagged for a closer look

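Ang II replicate 3 of *Apoe*-/- HPC-1 had the lowest mean correlation with the other 4 libraries of its genotype, 0.852 against 0.912 to 0.932, and was far from the others in its group. One Ang II library of *Apoe*-/-*Il27ra*+/- HPC-1 had 6318379 counts, far above the other 3 of its group (2272026 to 2618919). About 1 in 20 groups compared in this way would show such a library by chance. The cause of either was not tested.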

How the results depend on the processing

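The count of 0 called genes in *Apoe*-/- HPC-1 held under all alternatives but DESeq2 (1). The count at an unadjusted p under 0.05 was 765 by limma-voom, 1102 without a filter, 240 with only the groups compared, 931 with all 36 libraries, and 171 to 703 with each library left out. With *Il27ra*+/- 4 genes were called by DESeq2 and 11 without a filter, and with *Il27ra*-/- 1 and 10, or 0 to 1 with a library left out. For the difference between genotypes the calls were 1 by DESeq2 and 8 without a filter (*Il27ra*+/-), and 4 without a filter (*Il27ra*-/-). With only the 15 libraries low in *Xist* the calls were 8 with *Il27ra*+/-, 12 with *Il27ra*-/-, and 9 and 4 for the differences. *Apoe*-/-, of which no library was dropped, had 0, with 306 at an unadjusted p under 0.05. The log2 difference of *Il27ra* was −0.50 to 0.03, that of *Trp53* −0.38 to 0.03 and that of *Agr2* −0.47 to 1.69 with each library left out. *Il27ra* and *Trp53* were above 0 only without PBS replicate 2, *Agr2* below 0 without Ang II replicate 3, by limma-voom (−0.35) and with the replicate block below. The other 27 named genes kept their direction throughout. Other scaling factors moved the median over all genes in *Apoe*-/- HPC-1 by 0.01 at most. The cause of each change was not tested.

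Replicate numbers were not taken as pairs, since *Apoe*-/- HPC-1 has 2 numbers common to PBS and Ang II, too few for a check. In the other genotypes Ang II replicate 4 and PBS replicate 3, both high in *Xist*, correlated best (0.392 and 0.365). With a replicate block, 311 genes of *Apoe*-/- HPC-1 had an unadjusted p under 0.05, with calls of 7 and 1 in the other genotypes and 1 for the difference from *Il27ra*+/-, and −0.23 for *Agr2*. At these depths 3 counts are 0.872 to 1.29 CPM, which limits *Il27ra*, *Cdkn1a*, *Klf5* and the receptors of Ang II.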
